A study of Mus musculus with 3 samples.

Results

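The genes described here are 6 genes for calcium-binding proteins of the EF-hand superfamily, Calb1, Calb2, Pvalb, Necab1, Necab2 and Hpca, taken by their symbols from a gene list of 32285 entries. All 6 symbols matched exactly 1 gene. The data are UMI counts (unique molecular identifiers, each standing for 1 captured RNA molecule) from single nuclei of the hippocampus of 3 adult female mice heterozygous for the D allele of the sodium channel gene Scn8a (Scn8aD/+), labelled "post-onset" in a study of a mouse model of developmental and epileptic encephalopathy. Nuclei were stained with propidium iodide, sorted, and sequenced with a 3' single-nucleus method, both hippocampi of a mouse together, 1 library and 1 batch per mouse. Mouse and batch therefore cannot be told apart. Control mice and mice sampled before onset were not analysed here, so the comparisons are between classes of nuclei within the same 3 animals and say nothing of the effect of the allele.

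EF-hand proteins hold calcium in helix-loop-helix motifs. Calbindin (Calb1), calretinin (Calb2) and parvalbumin (Pvalb) are known mainly as buffers that shape the size and time course of calcium signals, and each is a classical antibody marker of particular hippocampal neurons. The NECAB proteins (Necab1 and Necab2) combine an EF-hand part with a monooxygenase-like domain, and hippocalcin (Hpca) belongs to the neuronal calcium sensors, which move to membranes when they bind calcium.

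In the mm10 build with the GENCODE vM21 annotation, Calb1 (ENSMUSG00000028222) lies on chromosome 4 from 15881264 to 15908064 on the plus strand. Necab1 (ENSMUSG00000040536) lies on the same chromosome from 14952245 to 15149794 on the minus strand, 731469 bases away from Calb1. Hpca (ENSMUSG00000028785) is also on chromosome 4, from 129111570 to 129122036, minus strand. Calb2 (ENSMUSG00000003657) on chromosome 8 runs from 110137502 to 110168210 on the minus strand. Necab2 (ENSMUSG00000031837) is on chromosome 8 too, from 119446719 to 119472640 on the plus strand, and Pvalb (ENSMUSG00000005716) is on chromosome 15 from 78191114 to 78206400, minus strand. All 6 are protein-coding. Annotated exons cover 27.9% of Hpca but 2.65% of Necab1, and counts are not scaled by length, so levels are compared between classes for 1 gene and not between genes.

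Mouse 1 gave 7889 nuclei after filtering with a median of 8421 UMIs, mouse 2 gave 11757 with 1796, and mouse 3 gave 4393 with 24859. Pairs of libraries shared 13 to 36 cell barcodes. Nuclei were clustered without the 6 genes and without 34 other EF-hand genes, and clusters were named "X-like" from marker genes. 19 classes had at least 20 nuclei in at least 2 mice, and levels are in CPM, the UMIs of a gene scaled to a fixed total of UMIs of a class in a mouse. PV-type and Sst-type interneuron-like nuclei reached 20 in mice 1 and 3 only. In mouse 2, 3786 nuclei stayed unnamed, against 309 and 20 in mice 1 and 3. RNA of glutamatergic neurons was counted in all glial classes: the summed level of 6 glutamatergic markers there was 17.2% to 29.1% of that in glutamatergic neuron-like nuclei in mouse 1, 52.3% to 61.4% in mouse 2 and 14.6% to 25.5% in mouse 3, and none of the 6 was at 0. Of 7 inhibitory markers the summed level in glia was 2.86% to 55.7% of that in inhibitory neuron-like nuclei over the 3 mice, with at most 1 marker at 0.

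**Figure D1:**
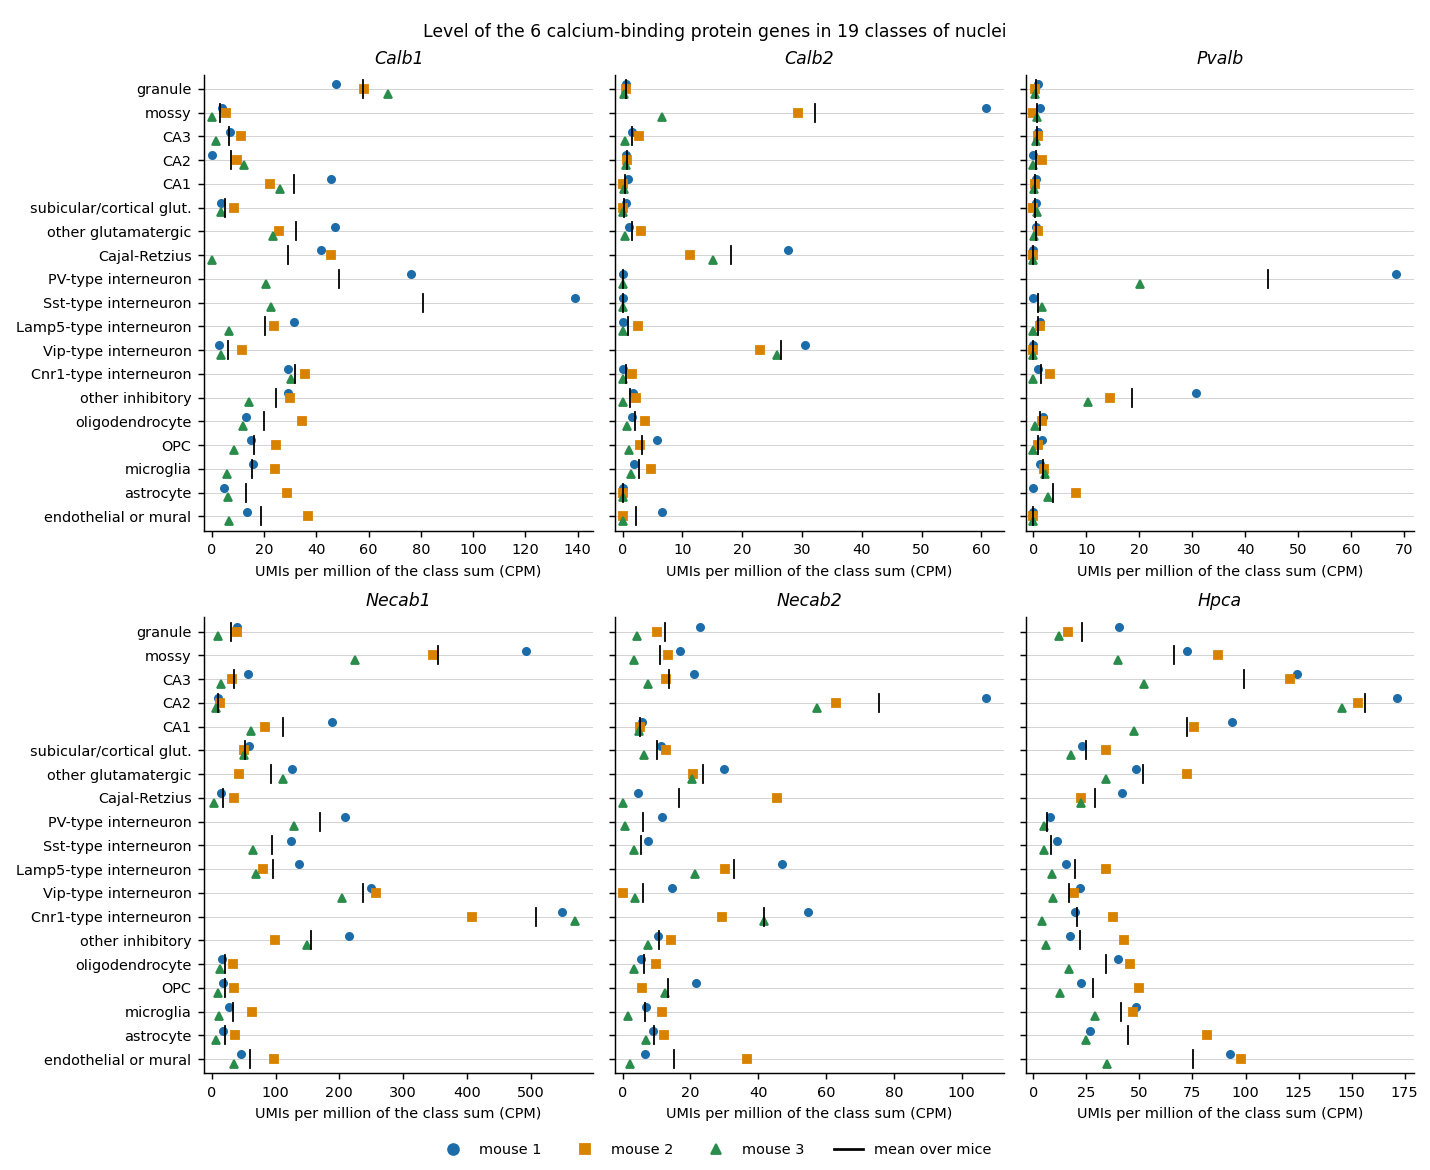
Level of each gene (x axis, CPM of the class sum, linear, a different range in each panel) in 19 classes of nuclei (y axis), with 1 point per mouse and a bar at the mean over mice. Pvalb stands out in PV-type and other inhibitory nuclei, Calb2 in mossy, Vip-type and Cajal-Retzius nuclei, and Necab2 and Hpca in CA2 nuclei.

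Calb1 was high in granule-like nuclei of the dentate gyrus in all 3 mice. Its level there was 47.4 CPM in mouse 1, 58.4 in mouse 2 and 67.4 in mouse 3 (57.7 ± 10.0, SD, n = 3). In CA1-like nuclei it was 45.6, 22.2 and 26.1 CPM, so every granule value lay above every CA1 value. CA3-like nuclei had 7.05, 11.3 and 1.72 CPM of Calb1, below all CA1 values. CA2-like nuclei had 0, 9.66 and 12.4 CPM. The 0 in mouse 1 rests on 67 nuclei and allows up to 1.95 CPM (3 UMIs). Mossy-like nuclei had 3.88, 5.35 and 0 CPM, the lowest mean of the 19 classes. Calb1 in the dentate gyrus and hippocampus proper was thus ordered granule, CA1, then CA2, CA3 and mossy, with the last 3 overlapping. The means of these last 3 (7.35, 6.70 and 3.07 CPM) lay below those of the glial classes, 13.1 (astrocyte-like) to 19.8 (oligodendrocyte-like). In mouse 2 the CA1 value also lay below the 28.0 CPM of glia-like nuclei together.

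In 2 interneuron classes Calb1 differed widely between mice. Sst-type interneuron-like nuclei had 139 CPM of Calb1 in mouse 1 and 22.5 in mouse 3, and PV-type had 76.2 and 20.8. The same classes held 19 and 14 nuclei in mouse 2, with 88.0 and 49.0 CPM, and these were left out of means. Sub-cluster i14 held 62 of the 65 PV-type nuclei in mouse 3 but 1 of 85 in mouse 1. Cnr1-type interneuron-like nuclei (cannabinoid receptor and cholecystokinin cells) were steadier in Calb1, at 29.2, 35.8 and 30.4 CPM. Vip-type nuclei had 2.91, 11.5 and 3.68 CPM. In the order of means over all 19 classes, led by Sst-type nuclei, each class overlapped the next. Without mouse 1 the granule-like class led with 62.9 CPM.

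In granule-like nuclei 24.8%, 33.7% and 43.9% held a Calb1 UMI, at median depths of 10109, 13106 and 24517 UMIs. In microglia-like nuclei, which are not known to make calbindin, the shares were 3.88%, 4.5% and 4.10%, at medians of 2443, 1323 and 6401 UMIs. After thinning each nucleus to 1000 UMIs the shares were 4.81%, 5.69% and 5.90% in granule-like and 1.70%, 2.75% and 1.03% in microglia-like nuclei. The granule share was higher in 3 of 3 mice at equal depth.

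Within granule-like nuclei Calb1 was uneven. Sub-clusters formed without Calb1 held 15.7 CPM (g0, 913 nuclei), 41.3 (g10, 319) and 90.1 (g4, 593) in mouse 1. In mouse 3 the sub-clusters g3 (619 nuclei), g11 (293) and g7 held 23.8, 35.6 and 143 CPM. The single sub-cluster of mouse 2 (g17, 240 nuclei) held 56.3 CPM. Calb1 was thus detected in 46.2% of nuclei of g4 but 11.8% of g0, and in 78.8% of g7 but 24.9% of g3. Median depths differed less, at 11669 and 9233 UMIs for g4 and g0, and 28803 and 22852 for g7 and g3. The sub-clusters with most Calb1 in mice 1 and 3 shared Gdpd2 and Pde7b among their 10 leading genes, and those with least Calb1 shared Mylk3 and Gm6999. Each sub-cluster was nearly of 1 mouse, so these differences are descriptions without a test.

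Calb1 was uneven within CA1-like nuclei too. In mouse 1, Calb1 was at 104 CPM in sub-cluster g13 (263 nuclei) and 15.1 in g2 (681 nuclei). In mouse 3 it was at 46.6 CPM in g21 (201 nuclei) and 11.9 in g8 (385 nuclei). The 2 sub-clusters of mouse 2 with at least 20 nuclei, g26 and g2, had 14.9 and 11.9 CPM, but 32 of the 77 Calb1 UMIs of CA1-like nuclei in mouse 2 lay in 11 nuclei of smaller sub-clusters. In each mouse a minority of CA1-like nuclei thus held much of the Calb1. The sub-clusters with most Calb1 in mice 1 and 3 shared 0 of their 10 leading genes.

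Necab1 went with Calb1 across these sub-clusters. In g13, the CA1 sub-cluster of mouse 1 with most Calb1, Necab1 was at 315 CPM, against 124 in g2. In mouse 3, Necab1 was at 95.6 CPM in g21 and 37.7 in g8. Granule sub-cluster g4 had 89.9 CPM of Necab1, against 8.45 in g0 and 15.4 in g10, and g7 had 20.1 CPM against 4.51 in g3 and 5.02 in g11. In each mouse and class with several sub-clusters of at least 20 nuclei, the one highest in Calb1 was also highest in Necab1.

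**Figure D2:**
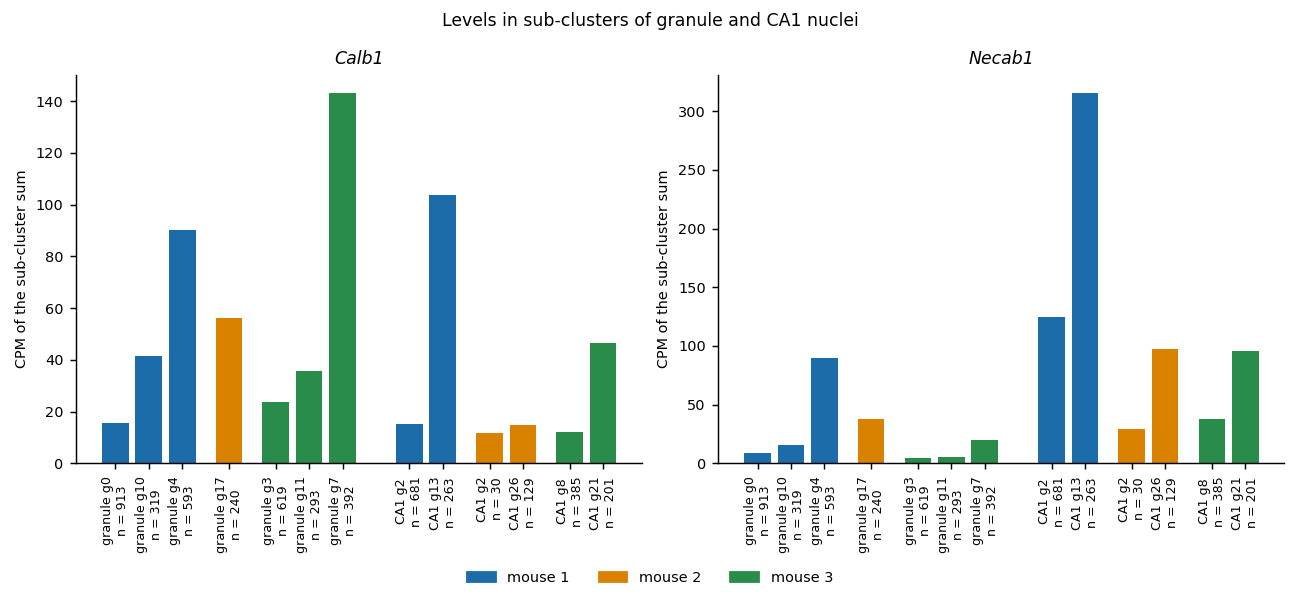
Calb1 and Necab1 levels (y axis, CPM of the sub-cluster sum) in sub-clusters of granule-like and CA1-like nuclei with at least 20 nuclei, coloured by mouse and ordered by Calb1 within each mouse and class. In mice 1 and 3 the rightmost bar of each set is highest for both genes, for example 90.1 CPM of Calb1 and 89.9 CPM of Necab1 in granule sub-cluster g4.

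The nuclei of both classes, which include those of the sub-clusters above, were also split by whether they held a Calb1 UMI. Granule-like nuclei with a Calb1 UMI had a Necab1 level of 76.2, 52.0 and 14.8 CPM in mice 1, 2 and 3, and those without had 24.9, 30.9 and 5.45 CPM. In CA1-like nuclei Necab1 was at 279, 109 and 86.1 CPM with a Calb1 UMI and 147, 75.8 and 44.7 CPM without. Necab1 was therefore higher in Calb1-positive nuclei in 3 of 3 mice in both classes. In CA1-like nuclei Necab2 was also higher with a Calb1 UMI in 3 of 3 mice, at 7.90, 9.09 and 6.01 CPM against 4.69, 4.07 and 3.92, while in granule-like nuclei it was higher in mouse 2 only. Hpca was lower with a Calb1 UMI in 3 of 3 mice: in granule-like nuclei it was at 37.2, 14.9 and 11.1 CPM with a Calb1 UMI and 41.5, 17.1 and 13.3 without. Nuclei with a Calb1 UMI were deeper (medians of 11751 against 9756 UMIs in granule-like nuclei of mouse 1). Each CPM is relative to the summed UMIs of its set, and the part of depth in these differences was not tested.

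Calb2 was concentrated in 3 classes. Mossy-like nuclei of the hilus had 60.7, 29.4 and 6.65 CPM (47, 22 and 10 UMIs in 37, 104 and 25 nuclei). Vip-type interneuron-like nuclei had 30.5, 23.1 and 25.8 CPM, from 21, 6 and 14 UMIs. Cajal-Retzius-like nuclei had 27.7, 11.4 and 15.1 CPM, from 6, 1 and 4 UMIs. These classes overlapped each other, mossy-like nuclei spreading most between mice. Their lowest value lay above the highest of the next class in the order, OPC-like nuclei (oligodendrocyte precursors) at up to 5.79 CPM. Endothelial or mural-like nuclei, lower by mean, reached 6.64 CPM in mouse 1, next to the lowest mossy-like value. Unnamed nuclei, outside the 19 classes, had a mean of 10.9 CPM (3.19 to 19.1).

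No Calb2 UMI was found in PV-type nuclei (85 in mouse 1 and 65 in mouse 3), which allows up to 2.31 and 1.04 CPM. None was found in Sst-type nuclei, which allows up to 2.84 and 1.30 CPM. Granule-like nuclei had 0.594, 0.615 and 0.312 CPM. Calretinin is known as a marker of mossy cells in mice, and of the mossy-like nuclei 62.2%, 11.5% and 20% held a Calb2 UMI, at median depths of 18247, 3811 and 51450 UMIs. The deepest library thus had neither the highest level nor the highest share. In granule-like nuclei, where the gene is hardly made, the shares were 0.602%, 0.407% and 0.766%, at medians of 10109, 13106 and 24517 UMIs. When each library was clustered alone, and when nuclei were thinned, Cajal-Retzius-like nuclei led instead of mossy-like nuclei, with 24.7 and 36.9 CPM. Without mouse 1, Vip-type nuclei led with 24.4 CPM.

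Pvalb, which took no part in naming, was highest in the class named PV-type from other markers: 68.5 CPM in mouse 1 and 20.2 in mouse 3, with a UMI in 48.2% and 43.1% of nuclei. The 14 PV-type nuclei of mouse 2 had 43.5 CPM. PV-type nuclei of mice 1 and 3 came from different sub-clusters, with 62 of 65 in i14 in mouse 3 but 1 of 85 in mouse 1. Other inhibitory nuclei, those not given a subtype, had 30.8, 14.5 and 10.4 CPM and overlapped the PV-type range. Among them, sub-cluster i10 (46 of 171 nuclei in mouse 1 and 35 of 991 in mouse 2) held 91.3 and 48.0 CPM of Pvalb. The value of mouse 1 lay above that of its PV-type class. Leading genes of i10 included Pthlh and Syt2. Sub-cluster i2 (196 nuclei in mouse 2), also without a subtype, had Pvalb itself among its leading genes. Pvalb was at most 8.16 CPM in any other of the 19 classes, in astrocyte-like nuclei of mouse 2 (2 UMIs), and no UMI was found in Vip-type, Cajal-Retzius-like or endothelial or mural-like nuclei. The zeros allow up to 11.5, 34.1 and 36.7 CPM in these 3 classes in mouse 2, the library with the widest limits, so Pvalb was not detectable there at this depth. Glia-like nuclei held a Pvalb UMI in 0.440%, 0.449% and 0.584% of cases, at median depths of 2866, 1379 and 6889 UMIs.

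Necab1 was led by the same 3 classes in the same order in every mouse. Cnr1-type interneuron-like nuclei had 549, 408 and 570 CPM of Necab1 (509 ± 88.1, SD, n = 3). Mossy-like nuclei had 493, 346 and 225 CPM. Vip-type nuclei had 250, 257 and 204 CPM. Over the order of means, neighbouring classes overlapped throughout, but Cnr1-type and Vip-type nuclei, 2 ranks apart, did not. In Cnr1-type nuclei of mice 1 and 3, in this order, 97.1% and 100% held a Necab1 UMI, and 47.9% did in mouse 2, at median depths of 13293, 45548 and 2261 UMIs. In granule-like nuclei the shares were 20.2%, 16.4% and 27.2%, at 10109, 24517 and 13106 UMIs. After thinning to 1000 UMIs, 32.4%, 25.3% and 36.4% of Cnr1-type nuclei of mice 1, 2 and 3 held one, against 3.17%, 4.47% and 0.690% of granule-like nuclei.

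Among pyramidal classes Necab1 was high in CA1-like nuclei, at 189, 83.2 and 61.4 CPM, and lowest in CA2-like nuclei, at 9.73, 12.9 and 6.51 CPM. CA3-like nuclei had 57.1, 31.3 and 14.5 CPM. A small sub-cluster, g31 (47 nuclei in mouse 1 and 21 in mouse 2), which the CA3 markers placed there weakly, held 311 and 295 CPM. Without it, CA3-like nuclei had 19.7, 19.2 and 5.21 CPM of Necab1.

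Necab2 was highest in CA2-like nuclei in each mouse, at 107, 62.8 and 57.3 CPM (75.7 ± 27.2, SD, n = 3), above the highest value of the second class. That class was the Cnr1-type interneurons, with 54.7, 29.3 and 41.6 CPM. Lamp5-type interneuron-like nuclei (neurogliaform and related cells) followed with 46.9, 30.2 and 21.3 CPM, and these 2 overlapped. CA1-like nuclei had 5.70, 5.18 and 4.76 CPM of Necab2, the lowest mean of all 19 classes. CA1-like nuclei thus had more Necab1 and less Necab2 than CA2-like nuclei in 3 of 3 mice. A Necab2 UMI was found in 86.6%, 36.1% and 85.7% of CA2-like nuclei, at median depths of 20140, 5842 and 53734 UMIs, and in 7.80%, 10.0% and 10.6% of CA1-like nuclei, at 14495, 19713 and 39338.

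Hpca followed the pyramidal fields. CA2-like nuclei had 171, 153 and 145 CPM (156 ± 13.3, SD, n = 3), all above the 124, 121 and 52.3 CPM of CA3-like nuclei. CA1-like nuclei had 93.8, 76.0 and 47.3 CPM, overlapping CA3. Granule-like nuclei had 40.3, 16.3 and 12.2 CPM, and PV-type nuclei had 7.70 and 5.21, the lowest mean. In CA2-like nuclei a UMI of both Necab2 and Hpca was found in 85.1%, 27.8% and 82.1%.

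Hpca was also counted in non-neuronal nuclei. Endothelial or mural-like nuclei (30, 46 and 56) had 92.9, 97.8 and 34.9 CPM, from 14, 8 and 16 UMIs, and microglia-like nuclei had 48.3, 47.0 and 29.1 CPM. In the endothelial or mural-like class the summed level of 6 glutamatergic markers was 57.8%, 60.6% and 19% of that in glutamatergic neuron-like nuclei, and none was at 0. The part of neuronal RNA in these Hpca counts was not tested. For granule-like nuclei the Hpca level lay below the microglia-like level in each mouse.

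Differences between classes were tested on the summed counts per mouse with edgeR's quasi-likelihood test, each mouse forming a block, and p-values were adjusted by Benjamini-Hochberg across the genes of a comparison. A call needed both a 2-fold change and an adjusted p below 0.05. The SE of a log2 fold change was derived from the test, as its absolute value over the square root of the F statistic. With mouse as a block, these p-values set the class difference within mice against its variation from mouse to mouse. They rest on 3 mice of 1 group, and on 2 mice for PV-type against Sst-type nuclei. Of the 4 to 6 members tested, 2 to 3 were called in each comparison except that of PV-type with Sst-type nuclei, where 1 was. Over all genes tested, 6.59% to 23.7% were called, as given for each comparison below.

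**Figure D3:**
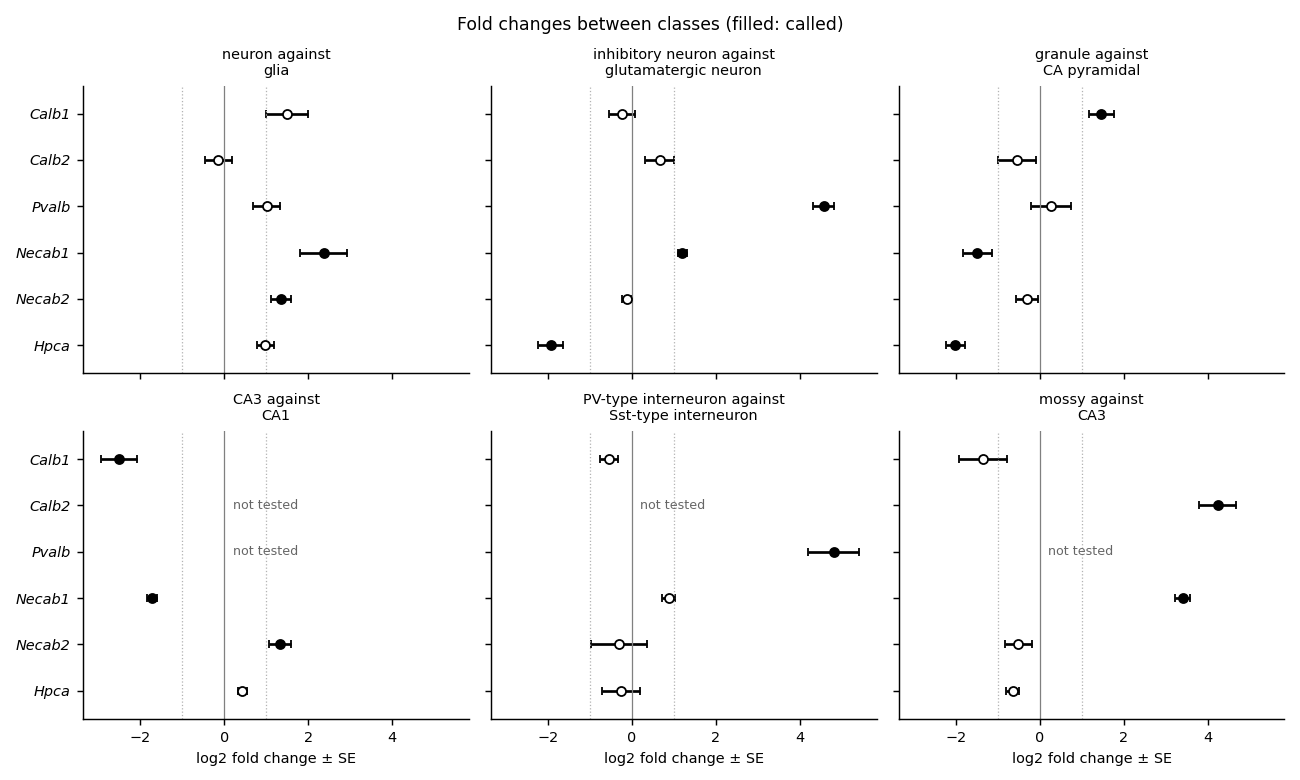
Log2 fold change of each gene (x axis, first class over second, bars 1 SE derived from the F statistic) in 6 comparisons between classes. Filled points were called, dotted lines mark a 2-fold change, and genes with too few counts read "not tested". Pvalb and Calb2 reach the largest positive changes (4.80 and 4.24), and Calb1 the largest negative one (-2.51, CA3-like against CA1-like).

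Neuron-like against glia-like nuclei (oligodendrocytes, their precursors, microglia and astrocytes) gave calls for both NECAB genes and for no other member. Necab1 was at 120, 74.9 and 63.1 CPM in neurons and 18.0, 47.5 and 10.9 in glia, higher in neurons in 3 of 3 mice (log2 fold change 2.37 ± 0.56, SE, adjusted p = 0.0420). Necab2 was at 21.7, 16.9 and 9.82 CPM against 8.14, 10.4 and 5.63 (1.35 ± 0.25, adjusted p = 0.0280). Calb1 was at 39.5, 27.0 and 33.5 CPM in neurons and 13.6, 28.0 and 9.34 in glia, so that in mouse 2 the order was the reverse (1.49, adjusted p = 0.0833). Hpca passed the p threshold but not the fold (0.98, adjusted p = 0.0324). Pvalb (1.01, adjusted p = 0.0759) and Calb2 (-0.14, adjusted p = 0.745) missed the threshold. The 2 calls of 6, both higher in neurons, compare with 23.7% of the 17469 genes tested, 8.96% higher and 14.7% lower.

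The calls of this comparison changed with each mouse left out. Mouse 2 had the most glutamatergic marker RNA in glia, and its part in these values was not tested. Without mouse 2, 4 of 6 members were called, and 33.6% of all genes, Calb1 with a log2 fold change of 2.19 (adjusted p = 0.00163) and Hpca with 1.16 (adjusted p = 0.0107) beside Necab1 and Necab2. Without mouse 1 or without mouse 3 edgeR called 0 genes of any kind (3923 and 5162 had an unadjusted p under 0.05, and DESeq2 on all mice called 5601), and Necab1 had adjusted p-values of 0.216 and 0.183.

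Inhibitory neuron-like against glutamatergic neuron-like nuclei separated 3 of 6 members, 2 higher and 1 lower, against 14.3% of all genes tested (7.57% higher and 6.73% lower). Pvalb was at 21.9, 11.6 and 8.02 CPM in inhibitory and 0.662, 0.663 and 0.311 in glutamatergic nuclei (log2 fold change 4.56 ± 0.24, adjusted p = 0.00177). Necab1 was at 233, 136 and 153 CPM against 105, 55.7 and 53.4 (1.20 ± 0.11, adjusted p = 0.00454). Hpca went the other way, at 15.6, 37.4 and 6.10 CPM against 66.3, 76.9 and 33.3 (-1.94 ± 0.30, adjusted p = 0.0134). The classes did not overlap for Pvalb or Necab1, and overlapped for Hpca only through mouse 2. Calb1 (-0.24, adjusted p = 0.606), Calb2 (0.66, adjusted p = 0.217) and Necab2 (-0.12, adjusted p = 0.444) missed the threshold. Without mouse 1, Hpca lost its call (adjusted p = 0.0921).

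Granule-like against CA pyramidal-like nuclei (CA1, CA2 and CA3 together) gave 3 calls among 6 members, 1 higher and 2 lower, against 18.1% of all genes (5.89% higher and 12.2% lower). Calb1 was higher in granule-like nuclei, at 47.4, 58.4 and 67.4 CPM against 31.4, 15.5 and 18.3 (log2 fold change 1.47 ± 0.29, adjusted p = 0.0112), with no overlap. Necab1 was lower, at 39.5, 38.7 and 9.98 CPM against 139, 50.0 and 45.2 (-1.49 ± 0.34, adjusted p = 0.0195). Hpca was lower too, at 40.3, 16.3 and 12.2 CPM against 108, 107 and 52.6 (-2.01 ± 0.23, adjusted p = 0.00113). For Necab1 the pooled fields differed: means were 111 CPM in CA1-like, 34.3 in CA3-like and 9.71 in CA2-like nuclei, against 29.4 in granule-like nuclei. CA2-like nuclei, and CA3-like nuclei without g31, lay below granule-like nuclei in each mouse. The pool held 949, 170 and 587 CA1-like and 292, 537 and 197 CA3-like nuclei in mice 1, 2 and 3. Calb1 lost its call without mouse 2 (1.25, adjusted p = 0.0670) and Necab1 without mouse 1 (-1.27, adjusted p = 0.0924).

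CA3-like against CA1-like nuclei gave 3 calls among the 4 members with enough counts, 1 higher and 2 lower, against 9.01% of all genes (4.98% higher and 4.03% lower). Calb1 was lower in CA3 in 3 of 3 mice (log2 fold change -2.51 ± 0.44, adjusted p = 0.0111). Necab1 was lower as well (-1.72 ± 0.12, adjusted p = 0.000502), and the change was larger without sub-cluster g31 (-2.94, adjusted p = 0.000743). Necab2 was higher in CA3 (1.32 ± 0.26, adjusted p = 0.0176), but its call was lost without g31 (0.98, adjusted p = 0.0727), without mouse 1 (0.93, adjusted p = 0.108) and without mouse 2 (1.32, adjusted p = 0.0594). Hpca changed by less than 2-fold (0.43, adjusted p = 0.0388).

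Mossy-like against CA3-like nuclei gave 2 calls among 5 members tested, both higher in mossy-like nuclei, against 6.71% of all genes (4.17% higher and 2.54% lower). Calb2 was higher in mossy-like nuclei (log2 fold change 4.24 ± 0.45, adjusted p = 0.000742), at 60.7, 29.4 and 6.65 CPM against 1.55, 2.70 and 0.431. Necab1 was also higher (3.41 ± 0.18, adjusted p = 4.18e-05), and more so without g31 (4.62, adjusted p = 0.000108), as was Calb2 (5.07, adjusted p = 0.000745). For Calb2 and Necab1 together, 91.3%, 91.7% and 100% of mossy-like nuclei with a Calb2 UMI also held a Necab1 UMI, against 85.7%, 67.4% and 90% of those without one. These shares are of raw counts, not at equal depth, in a class of 37, 104 and 25 nuclei. The part of depth in them was not tested. Hpca was lower in 3 of 3 mice by less than 2-fold (-0.64, adjusted p = 0.0334), and Calb1 missed the threshold (-1.35, adjusted p = 0.209).

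PV-type against Sst-type interneuron-like nuclei could be tested in mice 1 and 3 only. Sub-cluster i14 held 62 of the 65 PV-type nuclei of mouse 3 but 1 of the 85 of mouse 1. For this class, mouse and sub-cluster cannot be told apart. Pvalb was the 1 member called of 5, against 6.59% of all genes (3.17% higher and 3.42% lower), with 68.5 and 20.2 CPM against 0 and 1.73 (log2 fold change 4.80, adjusted p = 0.000995). Since 1 Sst-type value is 0, that fold depends on the prior count. Necab1 was at 209 and 130 CPM in PV-type and 125 and 65.0 in Sst-type nuclei, below 2-fold (0.87, adjusted p = 0.00849), and Calb1 missed the threshold (-0.55, adjusted p = 0.205). With doublets kept Calb1 was called lower in PV-type nuclei (-3.13, adjusted p = 1.44e-05). The PV-type class of that setting was 1 sub-cluster (43, 34 and 27 nuclei) led by Agbl1, Pthlh and Aox3. These genes also led i10, which had no subtype in the main analysis. The nuclei named PV-type were therefore not the same in both settings, and the fold changes cannot be set side by side. Calb1 and Pvalb were found together in 8 of 85 PV-type nuclei in mouse 1 and 15 of 65 in mouse 3. Without the mouse block the Pvalb call was lost (adjusted p = 0.222), as it was with DESeq2 (adjusted p = 0.152) and without a filter on low counts (adjusted p = 0.125).

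A Calb2 UMI was found in 2.66%, 1.19% and 2.08% of all inhibitory neuron-like nuclei, and a Pvalb UMI in 14.5%, 4.13% and 15.3%. For Calb1 and Calb2, of inhibitory neuron-like nuclei with a Calb1 UMI, 0 of 139, 4 of 133 and 0 of 74 also held a Calb2 UMI in mice 1, 2 and 3. For Calb1 and Pvalb the counts were 17, 4 and 16 of the same nuclei. Counts this low were not compared by a test.

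The 34 other EF-hand genes put the members beside their relatives. Between neuron-like and glia-like nuclei 32 were tested, and 4 were higher and 7 lower in neurons, 34.4% called against 23.7% of all genes. The median log2 fold change of the list was 0.29, against 0.03 over all genes and 1.18 over the 6 members. The largest changes were glial: Efhd1, a mitochondrial EF-hand protein (-5.80, adjusted p = 0.0234), and the S100 genes S100a16 (-4.36, adjusted p = 0.0231) and S100a1 (-3.70, adjusted p = 0.0146). The 6 members thus did not include the EF-hand genes with the widest neuron to glia difference.

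Between inhibitory and glutamatergic nuclei 29 were tested, with 1 higher and 6 lower in inhibitory nuclei (24.1% called, median -0.12 against -0.01 over all genes). Kcnip1, an accessory subunit of Kv-type potassium channels, was at 394, 278 and 394 CPM against 22.1, 35.0 and 16.4 (log2 fold change 3.80, adjusted p = 0.00419). Its relative Kcnip3 (-2.44, adjusted p = 0.0175) and the calmodulin-like Cabp7 (-2.16, adjusted p = 0.0183) were lower, as Hpca was.

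Between granule-like and CA pyramidal-like nuclei 3 were higher and 3 lower of 30 tested (20% called, median 0.02 against -0.01 over all genes). Necab3, the NECAB gene that is not a member, was at 118, 101 and 22.2 CPM in granule-like and 4.09, 4.75 and 0.645 in pyramidal-like nuclei (4.80, adjusted p = 3.31e-05). Necab1 was lower in the same contrast, opposite to Necab3, and Necab2 missed the threshold (-0.30, adjusted p = 0.461). Ncald, the calcium sensor neurocalcin, was higher (2.06, adjusted p = 0.000154) where its relative Hpca was lower. S100b was lower (-2.21, adjusted p = 0.0024).

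In CA3-like against CA1-like nuclei 2 of 26 were higher and none lower (7.69% called, median 0.02 against 0.01): Ncald (1.72, adjusted p = 0.000397) and Hpcal1, a close relative of Hpca (1.56, adjusted p = 0.0147). In mossy-like against CA3-like nuclei 2 of 25 were higher and 3 lower (20% called, median -0.19 against -0.02). Hpcal1 was at 62.0, 65.5 and 52.5 CPM against 7.90, 8.36 and 10.3 (2.61, adjusted p = 0.000306), while Cabp7 (-1.54, adjusted p = 0.0134) and Kcnip3 (-1.51, adjusted p = 0.0015) were lower. In PV-type against Sst-type nuclei 2 of 23 were higher and none lower (8.70% called, median 0.11 against 0.01), Kcnip2 (1.52, adjusted p = 0.0119) and Kcnip4 (1.04, adjusted p = 0.0204).

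**Figure D4:**
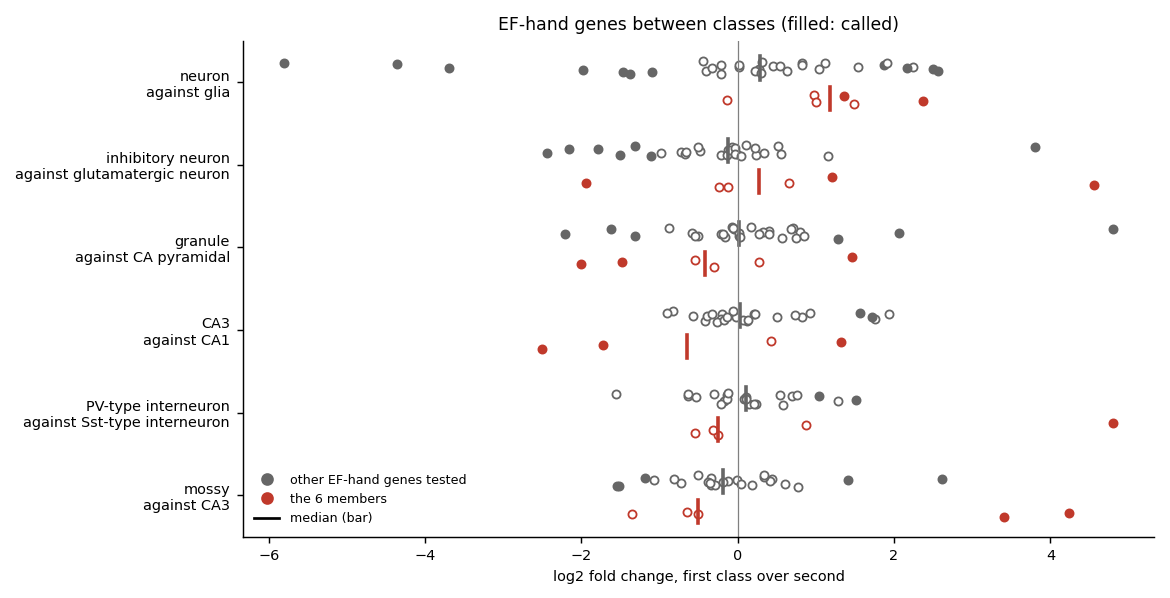
Log2 fold changes (x axis, first class over second) of the other EF-hand genes tested (grey) and of the members (red) in 6 comparisons; filled points were called, vertical bars mark the medians, and the vertical spread is only to separate points. The grey medians lie between -0.19 and 0.29, and the members' medians between -0.65 and 1.18.

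Across the 19 classes the genes most like each member were found by Pearson correlation of mean log2(CPM + 1) over 12155 genes with a mean of at least 5 CPM, as a description over classes that share libraries and depth. For Calb1 they were Sik2 (r = 0.80), Gm21781 (0.77) and Slc30a3 (0.77). For Calb2 they were Kcnf1 (0.79), Angptl1 (0.72) and Ppp2r5d (0.72). Those of Pvalb were Syt2 (0.86), Alkal2 (0.81) and Sucla2 (0.80), and Syt2 also led the Pvalb-rich sub-cluster i10. For Necab1 they were Gm11844 (0.94), Scn9a (0.89) and Lin28b (0.88). For Necab2 they were Ntf3 (0.73), which is among the CA2 markers used for naming, Strip2 (0.71) and Cby1 (0.69). For Hpca they were Pkp2 (0.89), Stum (0.89) and Cdc40 (0.89). Between members, r was -0.54 for Calb1 with Calb2, -0.55 for Calb1 with Hpca and 0.32 for Calb1 with Pvalb.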

How the data were processed

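Whole-number UMI counts per gene and barcode were deposited by the authors, made with Cell Ranger 7.0.0 (mice 1 and 2) and 7.1.0 (mouse 3) per the file headers and the mm10 build per the submitters' processing notes. The sources used here do not say if introns were counted. The submitters aimed at 10000 nuclei and 60000 reads per nucleus. The files held 8863, 13904 and 4659 barcodes with 100230288, 50931257 and 140527761 UMIs. Barcodes under 500 genes or over 5% mitochondrial UMIs were removed, and doublets were called with Scrublet in scanpy 1.11.5 (732, 1444 and 265 removed). In mouse 2 the automatic threshold called 0, so the expected rate was used there.

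Nuclei were clustered with Leiden (leidenalg 0.10.2, resolution 1.5, 20 neighbours, 30 components of 3000 variable genes, without the members and the 34 EF-hand genes). Clusters were named from marker lists, and glutamatergic and inhibitory nuclei were clustered again and named by subclass. The scoring rule was adjusted after clusters were seen, and names rebuilt in this way may differ from the study's. Members, gene lists and comparisons were chosen with earlier results of these data known.

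Counts were summed per mouse and class (at least 20 nuclei) and tested with edgeR 4.0.16 in R 4.3.3 (TMM, filterByExpr, mouse as block, Benjamini-Hochberg over all genes tested). The block joins classes of the same animal. The correlation of deviations from class means was 0.0708 for mouse 2 in neurons and glia, 0.341 and 0.329 for mice 1 and 3 there, and 0.295 to 0.731 in the other comparisons. The script was tested on simulated counts. Alternatives were DESeq2 1.42.0, RLE or no scaling, no filter, no block, leaving out each mouse, resolution 1.0, clustering each library alone, doublets kept and thinning to 1000 UMIs. Leaving sub-cluster g31 out of CA3 was added after the data were seen. Genes named were the 6 members, the 3 other EF-hand genes with the largest called change in each comparison, and the 3 most alike genes per member. Counting limits at 0 use 3 UMIs and cover counting error only.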

Additional observations from a re-analysis of the deposited data

How the results depend on the processing

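Under all alternatives together, 317 of 354 recomputed member fold changes kept their direction and their side of the threshold, 23 lost a call, 6 gained one and 8 changed sign, none of these 8 called in the main analysis. Pvalb in inhibitory nuclei, Hpca in granule-like nuclei, and Calb2 and Necab1 in mossy-like nuclei kept their calls in every alternative that gave a value. Class levels of the members moved by less than 1 SD in 371 of 444 recomputations other than those that left out a mouse. The share of nuclei holding both genes was recomputed for 6 pairings of genes and class. After thinning all 6 moved by 1 SD or more. Fewer UMIs per nucleus lower such a share by themselves, so the thinned values are no check of the pairings.

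The number of genes called changed as follows. For neurons against glia (4135 genes) it ranged from 0 to 6535 when 1 mouse was left out: edgeR called 0 without mouse 1 and without mouse 3, with 3923 and 5162 genes at an unadjusted p under 0.05. DESeq2, run on all 3 mice only, called 5601. It was 2676 with each library clustered alone and 2314 after thinning. For inhibitory against glutamatergic nuclei (2345) it ranged from 340 to 2720 with 1 mouse left out, lowest without mouse 1 and 1302 without mouse 3. Thinning gave 973 there, 1236 for granule-like nuclei (2939 in the main analysis), 445 for CA3 (1296), 130 for PV-type (731) and 126 for mossy-like nuclei (789), where fewer genes could be tested. Without the replicate block the counts were 1190 for inhibitory, 1673 for granule-like, 275 for CA3 and 207 for mossy-like nuclei. For PV-type nuclei edgeR called 0 without the block and 0 without the filter on low counts, with 678 and 2108 genes at an unadjusted p under 0.05, and DESeq2 called 395. Without the filter mossy-like nuclei gave 1209. The cause of these shifts was not tested.

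Without the block, 7 member calls were lost: Necab1 (adjusted p = 0.0507) and Hpca (0.0902) in inhibitory nuclei, Necab1 in granule-like nuclei (0.127), Calb1 (0.0859), Necab1 (0.156) and Necab2 (0.106) in CA3, and Pvalb in PV-type nuclei (0.222). It changed no other member's call.

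Signs changed with doublets kept for Calb2 in neurons (0.19), Calb1 in inhibitory nuclei (0.15) and Hpca in PV-type nuclei (0.45, where other nuclei bore that name). The sign of Calb1 in mossy-like nuclei changed too (1.57, in mice 1 and 3 only, so that doublets and the loss of mouse 2 cannot be told apart). They also changed for Calb2 in granule-like nuclei at resolution 1.0 (0.84) and for Necab2 there after thinning (0.24). With 1 mouse left out, Calb1 in inhibitory nuclei ranged from -0.48 to 0.21 and Necab2 in granule-like nuclei from -0.73 to 0.047, positive without mouse 3. Class totals in place of TMM moved the median over all genes between neurons and glia from 0.03 to -0.35, with 1096 genes higher and 3446 lower in neurons against 1565 and 2570. Necab2 then fell below 2-fold (0.97). DESeq2 gave 2680 higher and 2921 lower.

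For neurons against glia, Necab1 lost its call with each library clustered alone, just past the threshold. In CA3, Necab2 lost it with each library clustered alone (adjusted p = 0.0718) and with doublets kept (adjusted p = 0.193), a fit that held mice 1 and 3 only. PV-type against Sst-type nuclei could not be fitted with a mouse left out, nor at resolution 1.0. Mossy-like against CA3-like nuclei gave no fit with each library clustered alone. Median depth was 1796 UMIs in mouse 2 and 24859 in mouse 3, so shares of nuclei with a UMI cannot be set side by side between mice.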

Other observations

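Some glutamatergic sub-clusters that no marker list named also held Necab1. Sub-cluster g28 (65 nuclei in mouse 1 and 54 in mouse 3) had 426 and 616 CPM of Necab1, and g32 (42 and 21 nuclei) had 523 and 379. Sub-cluster g33, with 31 nuclei in mouse 1, had 635 CPM. Tcf7l1, Esr2 and Btbd11 were among the leading genes of g28, and Lef1, Reln and Ntsr1 among those of g33. Necab2 in g32 was at 71.8 and 69.6 CPM, and in g33 at 68.4 CPM.

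A further unnamed glutamatergic sub-cluster, g12, was present in all 3 mice (95, 119 and 56 nuclei) and held Necab2 at 102, 48.8 and 50.6 CPM and Hpca at 137, 134 and 71.6 CPM. Each value lay below that of CA2-like nuclei of the same mouse. Calcrl and Rgs5 were among its leading genes. Among inhibitory nuclei, sub-cluster i16 of mouse 2 (50 nuclei, led by Cpa6, Zic4 and Zic1) had 88.5 CPM of Necab2, from 23 UMIs. Sub-cluster i13 had 289 CPM of Necab1 in mouse 1 (26 nuclei) and 224 in mouse 2 (28 nuclei).

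Nuclei left unnamed, mostly of mouse 2 (3786 nuclei, median of 1298 UMIs), had 70.0 CPM of Hpca, 57.8 of Necab1 and 37.6 of Calb1. These values belong to no class comparison.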
